A study of Mus musculus with 10 samples.

Results

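Keratins, cell junction proteins and other genes typical of skin epithelium were examined in primary mouse embryonic fibroblasts (MEFs), cells in which they are not the defining genes. The 36 genes were listed by name, as keratins, desmosome, adherens and tight junction components, cornified envelope proteins and the regulators that maintain epithelial identity. Of these, 35 had a probe set that carried their symbol alone, out of 22180 genes so measured, and where a gene had several, the one with the greatest mean over the 10 arrays stood for it. Krt5 had no such probe set, since the one that covers it is shared with Krt6a.

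The series compared 5 arrays of Zbtb4 knock-out cells with 5 arrays of wild-type cells, each hybridised with total RNA. The cells came from E13.5 embryos, from the back skin after head and organs were removed, then minced and dispersed with trypsin. The labels name no sort, treatment, strain, passage number or deleted exon, and do not say whether each array of a genotype stands for its own embryo. The p-values below measure the spread between these samples, which may be technical in part. Y-linked genes were high on arrays 1 and 3 of each genotype and low on the others. The arrays of a genotype thus do not all stand for the same embryo. The Zbtb4 protein recognises methylated CpG dinucleotides through its zinc fingers, and the study looked for transcripts that depend on it. Its own probe set was lower on all 5 knock-out arrays, from 5.04 to 5.76, than on all 5 wild-type arrays, from 5.94 to 6.23, on the deposited log2 scale. The knock-out mean was 1.54-fold lower, a difference that did not pass the threshold used for the members (limma adjusted p = 0.628).

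Keratins form intermediate filaments from pairs of a type I and a type II chain. Krt8 and Krt18 are the pair of simple, single-layered epithelia, Krt5 and Krt14 that of basal keratinocytes, and Krt1 and Krt10 that of the layers above. Filaments are anchored at desmosomes, whose cadherins (desmogleins and desmocollins) bind plakoglobin, plakophilins and desmoplakin inside the cell. E-cadherin, encoded by Cdh1, holds adherens junctions together, claudins and occludin seal tight junctions, and the transcription factor p63, encoded by Trp63, establishes the keratinocyte lineage. In fibroblasts, factors such as Snai1, Snai2 and Zeb1 are known to repress Cdh1 and other epithelial genes through the E-box sequence CACCTG.

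Upstream sequences are shown for 4 members whose values the results turn on or, for Epcam, that are low although many epithelia use them, with CACCTG and its reverse complement CAGGTG in capitals. They are the 250 bases before the gene start in RefSeq, build GRCm38.p6, printed 5′ to 3′ along the gene's strand: Krt18 at chr15:102027966-102028215 (plus strand), Krt8 at chr15:102004343-102004592 (minus), Cldn4 at chr5:134946935-134947184 (minus) and Epcam at chr17:87635729-87635978 (plus). Krt8 and Krt18 are neighbours with 0 protein-coding genes between them.
Krt18: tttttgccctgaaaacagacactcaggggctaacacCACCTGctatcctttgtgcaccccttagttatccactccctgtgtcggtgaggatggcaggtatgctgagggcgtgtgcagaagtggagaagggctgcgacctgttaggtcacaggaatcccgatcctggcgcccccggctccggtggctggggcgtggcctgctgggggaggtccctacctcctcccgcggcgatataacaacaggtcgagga
Krt8: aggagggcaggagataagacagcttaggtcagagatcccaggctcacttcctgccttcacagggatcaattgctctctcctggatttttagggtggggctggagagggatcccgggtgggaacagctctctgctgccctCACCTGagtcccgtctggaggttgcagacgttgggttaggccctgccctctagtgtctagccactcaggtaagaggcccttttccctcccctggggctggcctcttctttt
Cldn4: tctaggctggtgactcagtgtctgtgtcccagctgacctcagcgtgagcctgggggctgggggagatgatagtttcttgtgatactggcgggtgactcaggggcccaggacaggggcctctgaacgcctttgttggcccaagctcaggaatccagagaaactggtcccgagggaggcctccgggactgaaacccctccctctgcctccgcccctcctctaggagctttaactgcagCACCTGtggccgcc
Epcam: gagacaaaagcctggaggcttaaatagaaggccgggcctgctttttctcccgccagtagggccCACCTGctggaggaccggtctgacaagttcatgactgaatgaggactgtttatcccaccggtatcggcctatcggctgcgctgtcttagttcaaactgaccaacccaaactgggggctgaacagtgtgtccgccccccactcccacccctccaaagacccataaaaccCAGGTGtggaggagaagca

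Of the 36 members, 18 had an upstream window in the RefSeq table, and 10 of these 18 held CACCTG on either strand. The same letters were in 17.2% of all 32851 windows and in 16.9% of the 21263 windows of protein-coding genes. These shares are per window, while each member was counted by 1 window. Ocln was counted by its window with 2 matches, and its other window held 0. The Epcam window held 2 matches, and those of Krt18, Krt8 and Cldn4 held 1 each. A match describes the letters only. The CpG dinucleotide, whose methylated form Zbtb4 binds, occurred a median of 7.5 times in the members' windows, between the median of 6 over all windows and that of 10 over those of protein-coding genes. The Krt18 window held 12 and the Krt8 window 3. Members above and below the reference level described next had a like median, 8 over 10 genes and 8 over 7 genes, with ranges from 1 to 16 and from 0 to 22. CACCTG on either strand also occurred on both sides of that level. Above it were Krt7, Krt8, Krt10, Krt18, Cldn4 and Sfn, and below it Epcam, Ocln and Grhl3. Whether the motif bears on the values was not tested.

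No detection call came with the values, so each member was placed on the scale of the arrays by a reference level, the 95th percentile of 1105 olfactory receptor genes, at a log2 value of 3.94. Probe sets differ in how strongly they bind, so this places a probe set and does not order genes by abundance, and a value below it does not show that the transcript was absent. By this measure 16 of the 35 measured members lay above the reference level and 19 below it, where 55.5% of all genes lay above it. Just inside lay Krt1 at 3.95 and Lor at 4.15, and just outside Grhl3 at 3.88 and Dsp at 3.80 (means over 10 arrays).

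**Figure D1:**
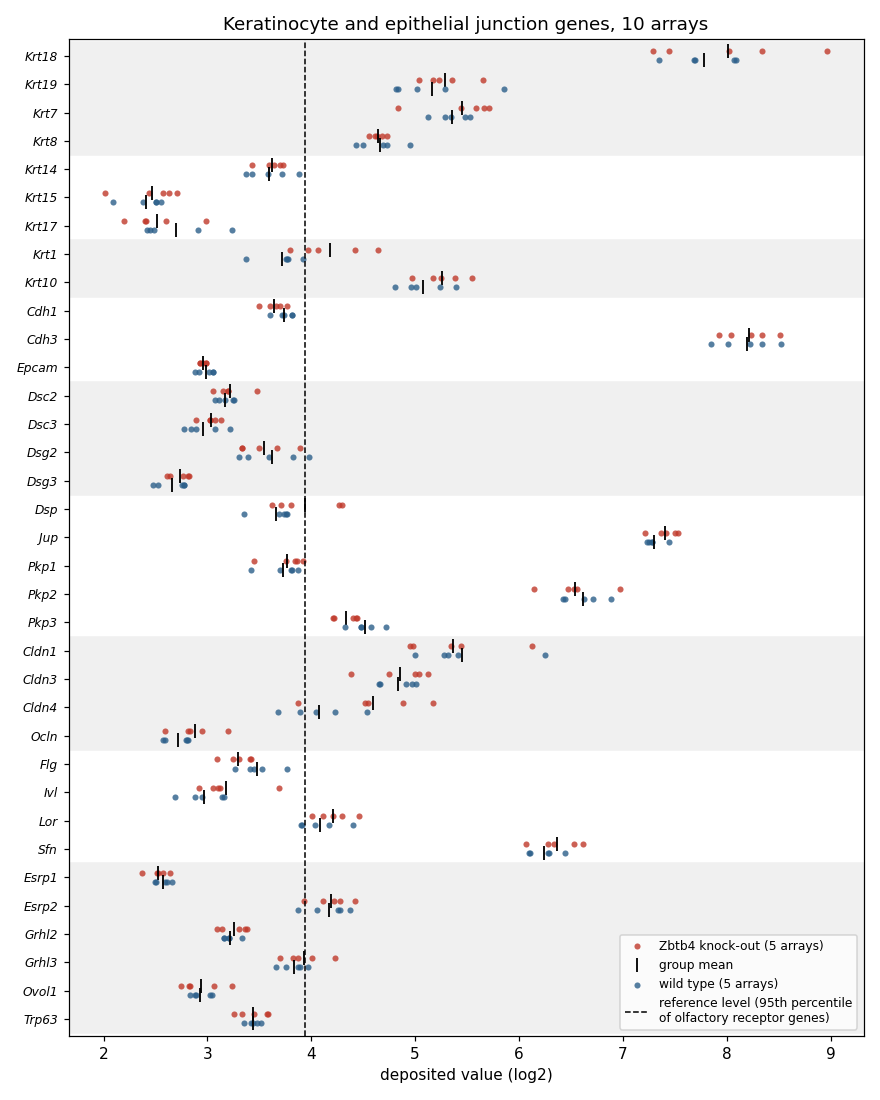
Deposited log2 value (horizontal axis) of each of the 35 measured genes (rows, shaded by role) on the 5 knock-out arrays (red) and 5 wild-type arrays (blue), with group means as black ticks and the reference level of 3.94 as a dashed line. The red and blue points overlap in every row, and 16 genes have a mean over 10 arrays to the right of the line.

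Several genes that define keratinocytes and epithelia lay below the reference level, while others of the epidermis lay above it. Trp63 had a mean of 3.44 ± 0.14 (SD, n = 5 here and below) on the knock-out arrays and 3.44 ± 0.06 on the wild-type arrays, and Krt14 at 3.62 ± 0.12 and 3.60 ± 0.21. Cdh1 was at 3.64 ± 0.10 and 3.74 ± 0.09, and Epcam, an adhesion molecule of many epithelia, at 2.96 ± 0.03 and 2.98 ± 0.08. None of the 10 arrays exceeded the reference level for these genes, nor for Krt15, Krt17, Dsg3, Dsc2, Dsc3, Pkp1, Ocln, Flg, Ivl, Grhl2, Esrp1 or Ovol1. The low side thus held p63, the keratins of the basal layer that were measured alone, all 4 desmosomal cadherins and E-cadherin, although 1 array crossed the line for Dsg2. The probe set that Krt5 shares with Krt6a lay above the line on all 10 arrays, the lowest at 3.96, and cannot be assigned to either gene. Means over 10 arrays above the reference level were found for Sfn (6.30), Krt10 (5.17), Lor (4.15) and Krt1 (3.95), and for 7 of 16 other epidermal differentiation genes, among them Sprr1a at 6.61, Sbsn at 5.45 and Cnfn at 5.14.

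All 14 measured fibroblast markers (Col1a1, Col1a2, Col3a1, Col5a1, Fn1, Vim, Thy1, Pdgfra, Pdgfrb, Lum, Dcn, Prrx1, S100a4 and Fap) lay above the reference level, from 5.35 to 12.12, and so did all 6 measured repressors of epithelial genes (Zeb1, Snai1, Snai2, Twist1, Twist2 and Tcf4), from 6.05 to 9.31. By these markers the arrays match the labelled cell type, and the name keratinocyte is used for the gene list and not for the cells. In bulk RNA, fewer cells of a type and less RNA per cell cannot be told apart.

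Among the members above the reference level on all 10 arrays were Cdh3, Jup, Pkp2 and Sfn. Cdh3, which encodes P-cadherin, had 8.52, 8.05, 8.23, 8.34 and 7.92 on knock-out arrays 1 to 5 and 8.34, 8.52, 8.01, 8.23 and 7.85 on wild-type arrays 1 to 5. The groups overlapped across their whole width, with a log2 difference of 0.02 (knock-out minus wild type here and below; limma 95% interval from -0.28 to 0.32). Jup encodes plakoglobin, which serves both desmosomes and adherens junctions. It had 7.42, 7.53, 7.37, 7.50 and 7.22 on the knock-out arrays and 7.25, 7.23, 7.28, 7.29 and 7.44 on those of the wild type, an overlap in which wild-type array 5 stood above the other wild-type arrays. Pkp2, the plakophilin found in tissues beyond stratified epithelium, ranged from 6.15 to 6.97 and from 6.42 to 6.88. Sfn, a 14-3-3 protein known from keratinocytes, ranged from 6.07 to 6.61 and from 6.10 to 6.45. The desmosomal plaque genes Jup and Pkp2 were therefore high on arrays where all 4 desmosomal cadherins had means under the reference level.

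Krt18 varied more between arrays than any other member. It had 8.97, 7.30, 8.02, 8.34 and 7.45 on knock-out arrays 1 to 5 and 7.69, 8.07, 8.09, 7.34 and 7.70 on wild-type arrays 1 to 5. The highest of all 10 was knock-out array 1, and knock-out array 2 gave the minimum, a 3.19-fold range that only 0.478% of all genes matched or exceeded. A second probe set with the same symbol also had its highest value on knock-out array 1, at 8.64, and its lowest on wild-type array 4, at 7.25. The difference between genotypes was 0.24 with a standard error of 0.27 (limma adjusted p = 0.905), and it came to -0.0020 without knock-out array 1.

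Krt8, the type II partner of Krt18, did not share that range. Its values were 4.61, 4.56, 4.68, 4.73 and 4.63 on the knock-out arrays and 4.73, 4.69, 4.43, 4.95 and 4.50 on the wild-type arrays. The array with the most Krt18 signal had a Krt8 value within the spread of the others, and the wild-type array highest in Krt8 was the lowest of its genotype in Krt18. The range of Krt8 was 1.43-fold, with a genotype difference of -0.02. On each probe set's own scale the values of the 2 genes thus moved unequally between cultures. Over all arrays the mean of Krt8 was 4.65, which is 0.72 above the reference level. That of Krt18 was 7.90, which is 3.96 above it. Signal over background is not known for these values, so the narrow Krt8 range does not show that its transcript failed to follow Krt18.

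The other keratins of simple epithelia, Krt7 and Krt19, are also known from mesothelium, the lining of body cavities. Krt19 had 5.18, 5.04, 5.23, 5.35 and 5.65 on the knock-out arrays and 4.83, 4.81, 5.02, 5.28 and 5.86 on the wild-type arrays, so array 5 was highest in both genotypes. Krt7 ran from 4.83 to 5.71 on the knock-out arrays, lowest on array 3, and from 5.13 to 5.53 on the wild-type arrays. Of 7 mesothelial markers, Msln, Wt1, Upk3b and Upk1b lay above the reference level and Lrrn4, Bnc1 and Muc16 below it. Their mean log2 level over the 7 genes ran from 3.89 to 4.51 in knock-out and from 3.97 to 4.24 in wild-type arrays. It was highest on knock-out array 2 (4.51), where Krt18 was at its lowest, followed by knock-out array 5 (4.33) and wild-type array 5 (4.24), the arrays highest in Krt19. The part of such cells in these values was not tested.

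**Figure D2:**
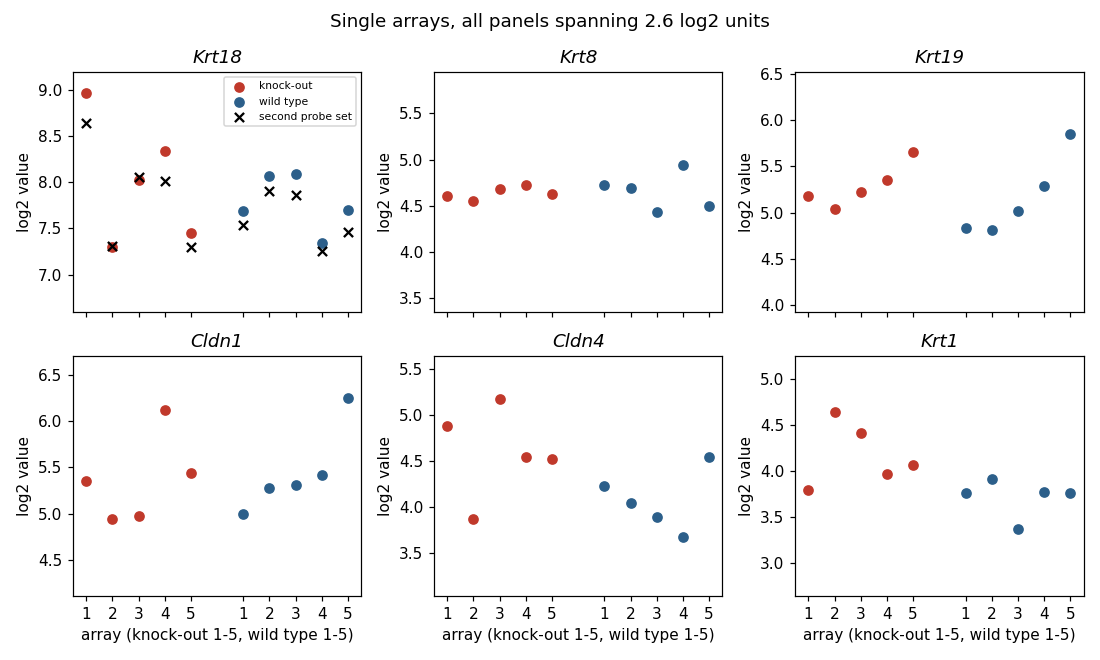
Deposited log2 value (vertical axis, each panel spanning the same width) on knock-out arrays 1 to 5 (red) and wild-type arrays 1 to 5 (blue) for 6 genes, with the second Krt18 probe set as crosses. Krt18 spans 7.30 to 8.97 with both probe sets highest on knock-out array 1, while Krt8 stays between 4.43 and 4.95.

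After Krt18, the members with the widest ranges were the claudin genes Cldn4 (2.82-fold) and Cldn1 (2.47-fold), closely followed by Krt1 (2.41-fold). Cldn1, the claudin of the epidermal barrier, had 5.35, 4.95, 4.97, 6.12 and 5.44 on the knock-out arrays and 4.99, 5.28, 5.31, 5.42 and 6.25 on the wild-type arrays. One array of each genotype, knock-out array 4 and wild-type array 5, stood above the rest, and the difference between genotypes was -0.08. Cldn4, a claudin of many simple epithelia, had 4.88, 3.87, 5.17, 4.54 and 4.52 on the knock-out arrays and 4.23, 4.05, 3.89, 3.68 and 4.54 on the wild-type arrays. Knock-out array 2 lay among the lower wild-type values and wild-type array 5 among the knock-out values, so the groups overlapped. The mean was 4.60 ± 0.49 with the knock-out and 4.08 ± 0.33 without it (SD, n = 5 each), a difference of 0.52 with a standard error of 0.21 that did not pass (limma unadjusted p = 0.0306, adjusted p = 0.821). Cldn3, which neighbours Cldn4 on chromosome 5 with 0 protein-coding genes between them, differed by 0.02, with values from 4.38 to 5.12 on the knock-out and from 4.65 to 5.01 on the wild-type arrays. Cldn4 and Cldn3 were also unlike on single arrays: knock-out array 2 was the lowest knock-out array for Cldn4 and the highest of all for Cldn3. Ocln, which encodes occludin, stayed below the reference level on every array, from 2.57 to 3.20.

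Macrophage markers were highest on the array that was highest for Cldn4. Of 7 such markers, 6 had a higher knock-out mean, and their mean log2 level ran from 3.89 to 5.04 in knock-out arrays and from 4.14 to 4.43 in wild-type arrays, with 5.04 on knock-out array 3. No value is 0 on this scale, and Ptprc, Adgre1 and Itgam lay below the reference level. Wild-type array 5, the highest wild-type array for Cldn4 (4.54), had the lowest wild-type macrophage mean (4.14). Knock-out array 5, with the lowest macrophage mean of all (3.89), had Cldn4 at 4.52. The part of macrophages in the Cldn4 values was not tested. Without knock-out array 3 the Cldn4 difference was 0.38, and without knock-out array 2 it was 0.70.

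The suprabasal keratin Krt1 had the smallest p-value of the members and also did not pass. Its values were 3.80, 4.64, 4.42, 3.97 and 4.07 on the knock-out arrays and 3.76, 3.92, 3.37, 3.78 and 3.76 on the wild-type arrays. Only knock-out array 1 fell within the wild-type range, and no wild-type array reached the reference level. The means were 4.18 ± 0.34 and 3.72 ± 0.20 (SD, n = 5 each), a difference of 0.46 with a standard error of 0.15 (limma unadjusted p = 0.00994, adjusted p = 0.821), or 0.34 without knock-out array 2. Krt10, the partner of Krt1, differed by 0.18 (95% interval from -0.09 to 0.46) and ran from 4.97 to 5.55 on the knock-out and from 4.81 to 5.39 on the wild-type arrays. The highest arrays differed within the pair, knock-out array 2 for Krt1 and knock-out array 1 for Krt10.

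Later differentiation genes went both ways. Ivl, a precursor of the cornified envelope, differed by 0.21 and Lor, which encodes loricrin, by 0.13, while Flg, which encodes the filament aggregating protein filaggrin, differed by -0.19, and Sfn by 0.12. The limma adjusted p-values of these 4 genes ran from 0.841 to 0.881. Ivl was at its highest on knock-out array 2, at 3.69, while the remaining knock-out arrays had 2.92 to 3.12. That array was the highest of all 10 for 8 of the 35 members, among them Krt1, Dsp, Jup, Cldn3, Ocln, Grhl2 and Grhl3, and the lowest for 4, among them Krt18 and Cldn1.

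Among desmosome genes, Dsp, which encodes the desmoplakin that ties keratin filaments to the junction, had 4.26, 4.29, 3.62, 3.80 and 3.70 on the knock-out arrays and 3.77, 3.75, 3.69, 3.35 and 3.74 on the wild-type arrays. Knock-out arrays 1 and 2 stood above the reference level and the other 8 arrays below it. The genotypes differed by 0.28 (standard error 0.14; limma adjusted p = 0.839). Pkp3 differed by -0.18 with the same adjusted p, with 4.21 to 4.44 on the knock-out and 4.33 to 4.72 on the wild-type arrays. The desmosomal cadherins Dsg2, Dsg3, Dsc2 and Dsc3 differed by -0.07 to 0.07. A second Dsg2 probe set differed by 0.12, opposite in sign to the one used, and a second Cdh1 probe set by 0.08, opposite to the -0.09 of the one used.

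Regulators of epithelial identity differed by no more than 0.10 in either direction. Trp63 differed by -0.0036, Ovol1, a zinc finger repressor of mesenchymal genes, by 0.0078, and the splicing regulators Esrp1 and Esrp2 by -0.05 and 0.03. The grainyhead-like factors Grhl2 and Grhl3, which activate junction and barrier genes, differed by 0.04 and 0.10. For Trp63 the 95% interval ran from -0.18 to 0.17, and intervals of this kind bound the differences these arrays allow without showing that there is none. Of these 6 genes only Esrp2 had a mean above the reference level.

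**Figure D3:**
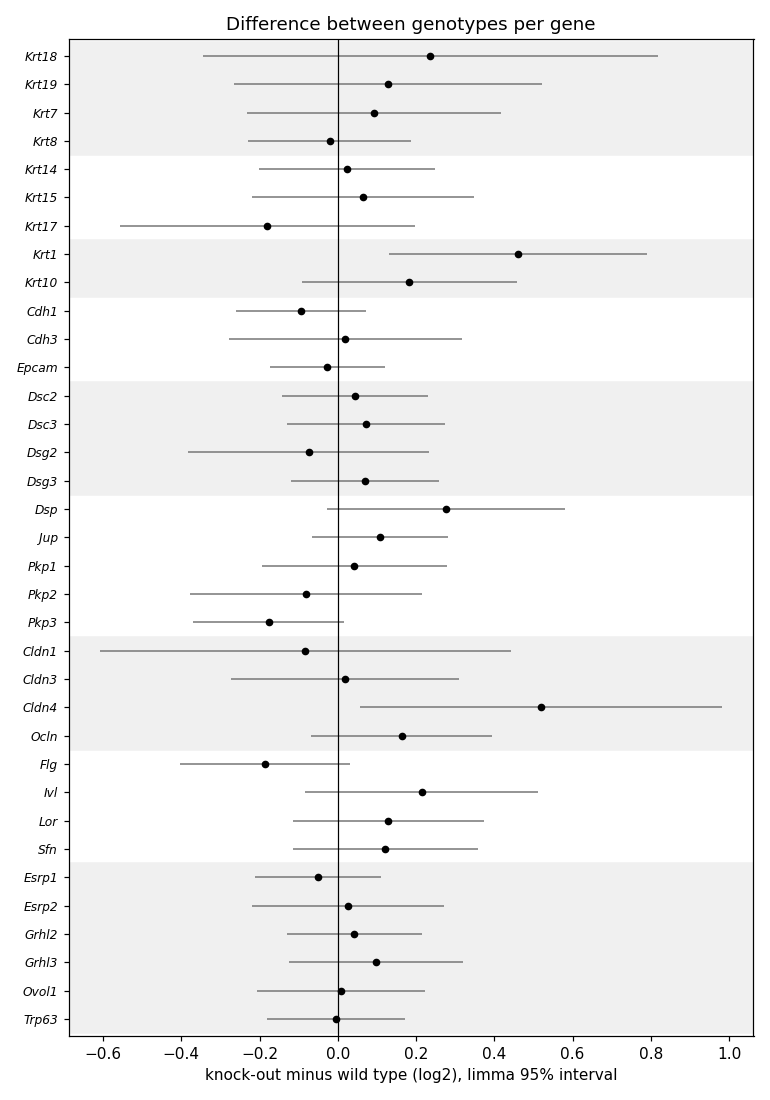
Difference between genotypes (horizontal axis, knock-out minus wild type, log2) for the 35 measured genes in rows shaded by role, with points for the estimate and bars for the limma 95% interval. The bars of Krt1 and Cldn4 lie above 0, and all others include it.

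Over all members, limma found 0 of 35 with an adjusted p under 0.05, where 0% of the 22180 genes passed. At an unadjusted p under 0.05 there were 2 members, Krt1 and Cldn4, or 5.71%, beside 5.98% of all genes. The groups of arrays overlapped for all 35 members, while they did not overlap for 0.987% of all genes. The largest member difference, that of Cldn4, was 1.43-fold, and 0.104% of all genes reached 1.5-fold. These shares are near the background.

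More members had a higher than a lower mean in knock-out cells, 24 against 11, or 68.6%, beside 50.7% of all genes. The median difference of the members was 0.04, against 0.0020 over all genes. Genes below the reference level leaned the same way throughout the array: 58.7% of all such genes had a higher knock-out mean, and 63.2% of the 19 members below it. Above the level, 44.3% of all genes and 12 of the 16 members had a higher knock-out mean. The olfactory receptor genes above it leaned as far as the members, with 43 of 56 higher, or 76.8%. Their median difference was 0.13, against 0.10 for the 16 members, so the lean is not particular to the epithelial genes. By role, the higher mean was in knock-out cells for 3 of 4 simple epithelial keratins, 2 of 3 basal and stress keratins, both suprabasal keratins, 3 of 4 desmosomal cadherins and 3 of 5 plaque genes. It was so too for 3 of 4 tight junction genes, 3 of 4 cornified envelope and differentiation genes and 4 of 6 regulators, but for 1 of 3 among the classical cadherins and Epcam. These counts describe a lean of mostly small differences, with a median size of 0.08 in the members and in all genes alike.

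**Figure D4:**
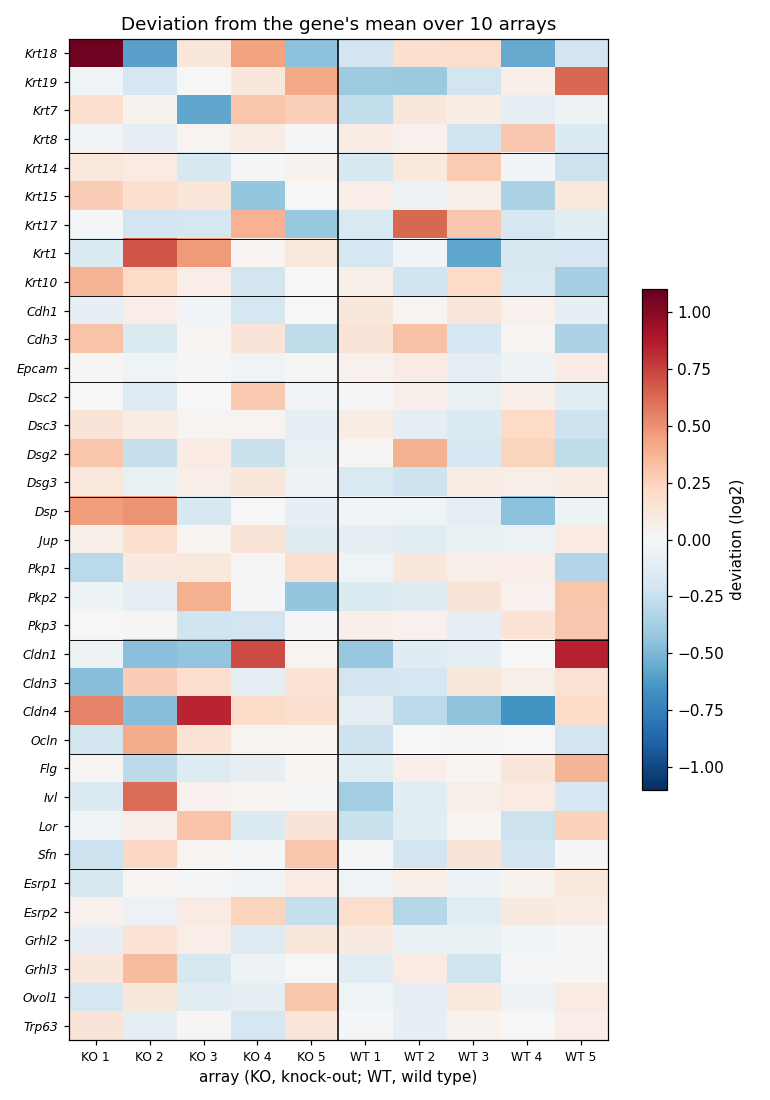
Deviation of each array (columns) from the gene's mean over 10 arrays (colour, log2) for the 35 measured genes, in rows divided by role, with knock-out arrays left of the vertical line. The strongest colours are single cells, such as Krt18 on knock-out array 1 and Cldn1 on knock-out array 4 and wild-type array 5, and no column is of 1 colour throughout.

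No array was high in the whole set. Averaged over the 35 members, an array's deviation from the members' means ran from 0.0041 to 0.06 in knock-out and from -0.08 to 0.02 in wild-type arrays. Wild-type array 1 had the lowest average, -0.08, and was the highest array for 0 members. Knock-out array 3 was above the mean for 23 of 35 members and wild-type array 1 for 11, and the other 8 arrays lay between 16 and 20. The arrays with the highest single values were not shared: knock-out array 1 for Krt18 and Krt10, knock-out array 2 for Krt1, Dsp and Ivl, knock-out array 3 for Cldn4 and Pkp2, wild-type array 2 for Krt17 and Dsg2, and wild-type array 5 for Cldn1 and Krt19.

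Related genes outside the list gave a like picture, with 0 passing limma's adjusted threshold in any list. Of 15 other keratins, 12 had a higher knock-out mean and 1, Krt80, an unadjusted p under 0.05 (difference 0.28). Krt5 and Krt6a shared a probe set whose means of 4.46 with the knock-out and 4.34 in the wild type cannot be assigned to either. Of 27 other junction and adhesion genes, 16 were higher and 11 lower, and the mesenchymal cadherin genes Cdh11 and Cdh2 had means of 10.08 and 8.19 over 10 arrays. The catenin genes Ctnnb1, Ctnna1 and Ctnnd1, whose products bind classical cadherins, differed by 0.03, -0.06 and 0.04. Of 8 genes of hemidesmosomes and the underlying basement membrane, 3 were higher and 5 lower.

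Among 16 other epidermal differentiation genes, 12 had a higher knock-out mean. Cdsn, which encodes the corneodesmosome protein corneodesmosin, had means of 4.55 with the knock-out and 3.97 without it, a difference of 0.57 whose groups did not overlap (limma unadjusted p = 0.00268, adjusted p = 0.804). Of 12 epithelial surface and protease genes, 10 had a higher knock-out mean. St14, a membrane protease, was at 0.28 and Mal2 at 0.28 (unadjusted p-values of 0.0086 and 0.0235, adjusted p = 0.821 for both, limma). The means of these genes over 10 arrays, 3.92 and 3.30, lay below the reference level. Of 13 epithelial transcription factor genes, 10 were higher, while Klf5 and Klf4, which fibroblasts also use, differed by -0.06 and -0.12. Of the 6 repressors, 5 had a lower knock-out mean, and Twist2 differed by -0.33 (limma unadjusted p = 0.0229, adjusted p = 0.821). Endothelial markers had 6 of 7 means higher and melanocyte markers 3 of 7, with 2 and 1 of their members above the reference level. For 2 of 7 endothelial markers every knock-out array lay above every wild-type array, while groups did not overlap for 0.987% of all genes. These were Cdh5, which encodes VE-cadherin (difference 0.61, limma unadjusted p = 8.89e-05, adjusted p = 0.628), and Esam (0.18, limma unadjusted p = 0.0383, adjusted p = 0.824). Both stayed below the reference level on every array. The 2 endothelial markers with means above it, Emcn and Kdr, differed by 0.02 and -0.19. The mean log2 level of the 7 endothelial genes ran from 3.63 to 3.88 on the knock-out and from 3.46 to 3.84 on the wild-type arrays, and the part of such cells in the members' values was not tested.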

How the data were processed

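Biotin-labelled total RNA was run on 1-colour arrays by the Affymetrix procedure, per the labels' protocols. The table used holds the values the authors deposited, whose range is that of log2 values, for 41345 probe sets on 10 arrays. Background correction, summarisation and normalization are not given in the sources used here. Of the probe sets, 23521 carried 1 gene symbol in the platform annotation, 1814 several and 16010 none. Where a gene had several, the one highest on average over the 10 arrays was kept, giving 22180 genes. Array medians ran from 3.89 to 3.93, and pairs of arrays correlated with r from 0.989 to 0.994 across genes.

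Differences were fitted over all genes with lmFit and eBayes in limma 3.58.1 (R 4.3.3) without filter or covariate, adjusted by Benjamini-Hochberg over all genes at a threshold of 0.05. The scripts were tested on simulated data. Lists are described by counts and medians only. The members and lists were chosen with earlier results of these data known. Named were all members, Zbtb4, all fibroblast markers and repressors, and of each other list up to 4 genes with the smallest p-values and up to 4 with the highest means; cell type markers were also named by their side of the reference level. Upstream windows came from RefSeq (GRCm38.p6). The number of arrays limits the precision (median standard error 0.101). Figures used matplotlib 3.10.9. Alternatives were quantile normalization, median centring, a filter on dim genes, other treatment of probe sets, other variance models, array weights, a replicate block, Y-linked expression as a covariate and leaving out each array.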

Additional observations from a re-analysis of the deposited data

Results flagged for a closer look

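In 70 groups of 5 arrays (35 genes in 2 genotypes), 3 held an array whose gap to its nearest neighbour took up more of the group's range than Dixon's 95% critical value of 0.71 allows. Chance flags about 1 in 20 such groups. Dsp was at 3.35 on wild-type array 4, against 3.69 to 3.77 on the other wild-type arrays. Jup was at 7.44 on wild-type array 5, against 7.23 to 7.29. Ivl was at 3.69 on knock-out array 2, against 2.92 to 3.12.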

How the results depend on the processing

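No member passed the threshold in any of 19 other settings, where the smallest adjusted p of a member was 0.589 (limma). Over all genes the count was 0 in every setting, except that it ranged from 0 to 1 with single arrays left out, the 1 arising without wild-type array 5. Without the dimmest 40% of genes, which leaves 20 members, 15 had a higher knock-out mean and the median difference was 0.095. At the 99th percentile of the reference genes 9 members lay above it, and 24 at the 90th. The replicate number as a block gave 0 genes and 0 members passing; same-numbered arrays are not paired by the labels, their deviations correlated with r from -0.045 to 0.17, and 3 of 10 arrays correlated best with their own number. Y-linked expression was high on arrays 1 and 3 of each genotype and low on the others, so by these genes same-numbered arrays were of the same sex. As a covariate it left 0 members passing.

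Signs were kept in every setting run by 21 members and turned in at least 1 by 14, all of them uncalled. Ovol1 turned to -0.012 under quantile normalization and -0.0049 under median centring, Dsg2 to 0.023 with probe sets averaged, and Krt14 to -0.0042 and Cdh3 to -0.016 with array weights. With single arrays left out, the differences ran from -0.077 to 0.051 for Krt8, -0.035 to 0.095 for Krt14, -0.015 to 0.18 for Krt15, -0.0020 to 0.42 for Krt18, -0.039 to 0.042 for Trp63, -0.065 to 0.10 for Cdh3, -0.16 to 0.015 for Dsg2 and -0.021 to 0.085 for Dsc2. They ran from -0.034 to 0.12 for Pkp1, -0.19 to 0.015 for Pkp2, -0.27 to 0.12 for Cldn1, -0.047 to 0.14 for Cldn3, -0.049 to 0.091 for Esrp2 and -0.067 to 0.056 for Ovol1. Why these values turned was not tested. Signal over background is not known for these values, which limits what can be read from members near the reference level.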
